A study of Homo sapiens with 24 samples.

Results

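The 10 genes described here encode ligands, receptors and membrane or cytoplasmic proteins of non-canonical Wnt signalling and planar cell polarity: WNT5A, WNT5B, WNT11, ROR1, ROR2, RYK, PTK7, VANGL1, VANGL2 and PRICKLE1. They were chosen by name, with earlier results of these data known, and each matched 1 row among the 28297 Ensembl genes of the table. Transcript levels were measured by RNA sequencing of H9 cells, a long-used line of human embryonic stem cells. The 24 libraries form 8 groups of 3 biological replicates. Engineered cells carried Cry2, a plant photoreceptor that clusters in blue light, joined to the intracellular part of the Wnt co-receptor LRP6, so that illumination switches on the canonical Wnt pathway. The design asks how engineered cells respond to that switch and how wild-type cells respond when grown beside them.

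The monoculture groups were engineered cells under light (Cry2 light), engineered cells in the dark (Cry2 dark), wild-type cells under light (wt light) and wild-type cells in the dark (wt dark). Equal parts of both kinds of cell were also grown together and sorted by flow cytometry. The engineered cells, which carry mCherry and a puromycin resistance gene beside the fusion, gave the groups mCherry light and mCherry dark. The wild-type cells gave the groups GFP light and GFP dark, and reads of eGFP and of a neomycin resistance gene were found in the wild-type cells of both cultures. Illuminated cultures received 0.8 µW/mm² over 48 h and dark cultures none; all cells grew in E8 medium, and wells were pooled within a replicate. The sources used here do not say whether the engineered line was 1 clone. The genotype tags of the monocultures run opposite to their titles; the titles were followed, and reads of the construct were found where the titles place it. Each co-culture group differs from its monoculture counterpart in both culture and sorting, and these cannot be told apart.

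Values are the authors' normalised read counts unless a value per kb is named, which is that count divided by the exon length of the gene in kilobases (GENCODE 29). Assigned reads ran from 28237578 to 56639833 per library, and in monoculture every dark library was shallower than every light library. Among the dark monocultures, 1 wt library had a GC content of 33.73% and 1 Cry2 library had an RNA integrity number of 7.6. The library wt light 2 stood apart from the other wt light libraries, with lower values for several of the 10 genes. Dark cells carried the markers of their label: 6 pluripotency markers (POU5F1, NANOG, SOX2, DPPA4, TDGF1 and LIN28A) summed to 229622 to 238525 in Cry2 dark. Changes are log2 differences of (normalised count + 1) ± SE. Their adjusted p-values come from limma with Benjamini-Hochberg adjustment over all genes tested, with 0.05 as the threshold. Each sets a change against the spread between replicate libraries, pooled over the groups of the same fit. The mCherry and GFP libraries, sorted from shared cultures, were tested as unpaired, because their columns could be matched to a group only.

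Non-canonical Wnt ligands act without beta-catenin: they bind Frizzled receptors together with ROR, RYK or PTK7 and signal through Dishevelled to the cytoskeleton or to calcium. The planar polarity branch uses a conserved core of membrane proteins, among them Vangl and Celsr, with cytoplasmic partners such as Prickle and Dishevelled, to orient cells within a tissue. In vertebrate gastrulation this branch is known for its part in convergent extension, the narrowing and lengthening of the body axis, and in the movement of mesoderm away from the primitive streak.

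The 250 bases before an annotated RefSeq start (GRCh38.p14) are shown for 5 genes with large or unusual changes, to set the promoters of genes that rose beside those that fell. WNT11 had no promoter available. Capitals mark CG dinucleotides. The windows lie at chr3:55487307-55487556 (WNT5A, minus strand), chr12:1616806-1617055 (WNT5B, plus), chr9:91950229-91950478 (ROR2, minus), chr1:63773767-63774016 (ROR1, plus) and chr12:42483616-42483865 (PRICKLE1, minus). Those of WNT5A, WNT5B and PRICKLE1 lie within the gene spans given below, so they precede internal starts.
WNT5A: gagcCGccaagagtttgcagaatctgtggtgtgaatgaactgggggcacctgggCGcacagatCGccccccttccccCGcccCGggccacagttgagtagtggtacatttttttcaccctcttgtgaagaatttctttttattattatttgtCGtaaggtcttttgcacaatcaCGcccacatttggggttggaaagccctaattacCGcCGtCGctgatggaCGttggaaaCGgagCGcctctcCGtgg
WNT5B: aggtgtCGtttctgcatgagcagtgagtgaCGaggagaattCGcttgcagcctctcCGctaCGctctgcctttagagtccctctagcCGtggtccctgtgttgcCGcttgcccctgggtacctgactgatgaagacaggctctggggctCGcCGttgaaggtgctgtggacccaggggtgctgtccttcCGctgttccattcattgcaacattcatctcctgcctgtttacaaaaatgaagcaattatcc
ROR2: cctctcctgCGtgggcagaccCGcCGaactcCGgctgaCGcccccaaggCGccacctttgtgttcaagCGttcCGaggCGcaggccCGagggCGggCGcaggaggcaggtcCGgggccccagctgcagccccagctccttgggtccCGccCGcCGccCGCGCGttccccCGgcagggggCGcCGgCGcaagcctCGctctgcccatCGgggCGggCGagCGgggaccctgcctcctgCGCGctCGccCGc
ROR1: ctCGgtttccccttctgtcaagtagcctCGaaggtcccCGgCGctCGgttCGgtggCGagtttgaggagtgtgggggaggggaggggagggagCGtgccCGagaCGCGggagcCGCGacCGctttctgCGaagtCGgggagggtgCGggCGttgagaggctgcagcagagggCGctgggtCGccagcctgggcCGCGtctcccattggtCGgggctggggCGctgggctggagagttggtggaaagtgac
PRICKLE1: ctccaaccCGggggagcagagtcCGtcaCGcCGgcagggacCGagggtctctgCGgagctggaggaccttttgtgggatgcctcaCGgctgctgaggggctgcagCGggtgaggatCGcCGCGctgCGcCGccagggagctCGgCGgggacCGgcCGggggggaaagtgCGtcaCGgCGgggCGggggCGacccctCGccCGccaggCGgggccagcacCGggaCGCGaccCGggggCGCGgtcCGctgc

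These windows held 14 CG dinucleotides in WNT5A and 10 in WNT5B, against 32 in ROR2, 24 in ROR1 and 32 in PRICKLE1. The median over all 35116 promoters of the table was 11. Second starts of WNT5A and WNT5B held 18 and 7. Among the other genes that rose under light, RYK held 34, VANGL1 32 and 28 at its starts, VANGL2 25, and PTK7 24 at each start. High counts were thus found in genes that rose as well as in those that fell. Of the 10 genes, 9 had at least 1 promoter in the table, 13 windows in all. The core of the TCF/LEF motif, searched on both strands as CTTTGAT (in 2.26% of all promoters) and CTTTGAA (3.81%), was in none of the 13. A T-box core, AGGTGTG (3.84%), was in 1 of them, at the second start of VANGL1. These are letter matches within the windows only.

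Light moved all 10 genes in Cry2 monocultures, 8 of them up and 2 down. Over all genes tested, 58.4% passed the same threshold, 28.1% higher and 30.4% lower, so passing it does not set the 10 genes apart. The median change of the 10 was 1.64 on the log2 scale, against -0.01 over all genes. Because the 10 genes were chosen with earlier results of these data known, these medians are descriptive only. The same 8 genes were higher and the same 2 lower in mCherry light than in mCherry dark, where 55.9% of all genes passed. There 27.2% of all genes were called higher and 28.7% lower. Of the 10 genes, PRICKLE1 alone passed in wt monocultures, where 0.072% of all genes passed, and that call did not hold under every alternative. PRICKLE1 and VANGL1 passed in GFP cells, where 4.6% of all genes passed. The engineered cells shifted identity over the same interval. The sum of 6 primitive streak and mesoderm markers, TBXT, MIXL1, EOMES, MESP1, TBX6 and MSGN1, was 129427 to 132081 in Cry2 light and 193 to 245 in Cry2 dark, where MSGN1 was at 0. The sum of the 6 pluripotency markers was 66034 to 68210 in Cry2 light. The 4 definitive endoderm markers summed to 2275 to 2539 in Cry2 light and 70.5 to 91.9 in Cry2 dark. Of these 4, 2 could be tested: CER1 rose (4.95 ± 0.20) and FOXA2 did not pass (-0.77 ± 0.50). Of 4 fibroblast markers, 2 were analysed: COL1A2 rose (3.31 ± 0.06), and COL1A1 did not pass (0.09 ± 0.09). The 4 neural markers summed to 1658 to 2035 in Cry2 light, with PAX6 at 0, and 1266 to 1492 in Cry2 dark. Of these 4, 2 could be tested, and both rose: LHX2 (3.65 ± 0.37) and OTX2 (0.31 ± 0.09). The part of all these markers in the changes of the 10 genes was not tested. In bulk libraries, fewer cells expressing a gene cannot be told apart from less RNA per cell.

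**Figure D1:**
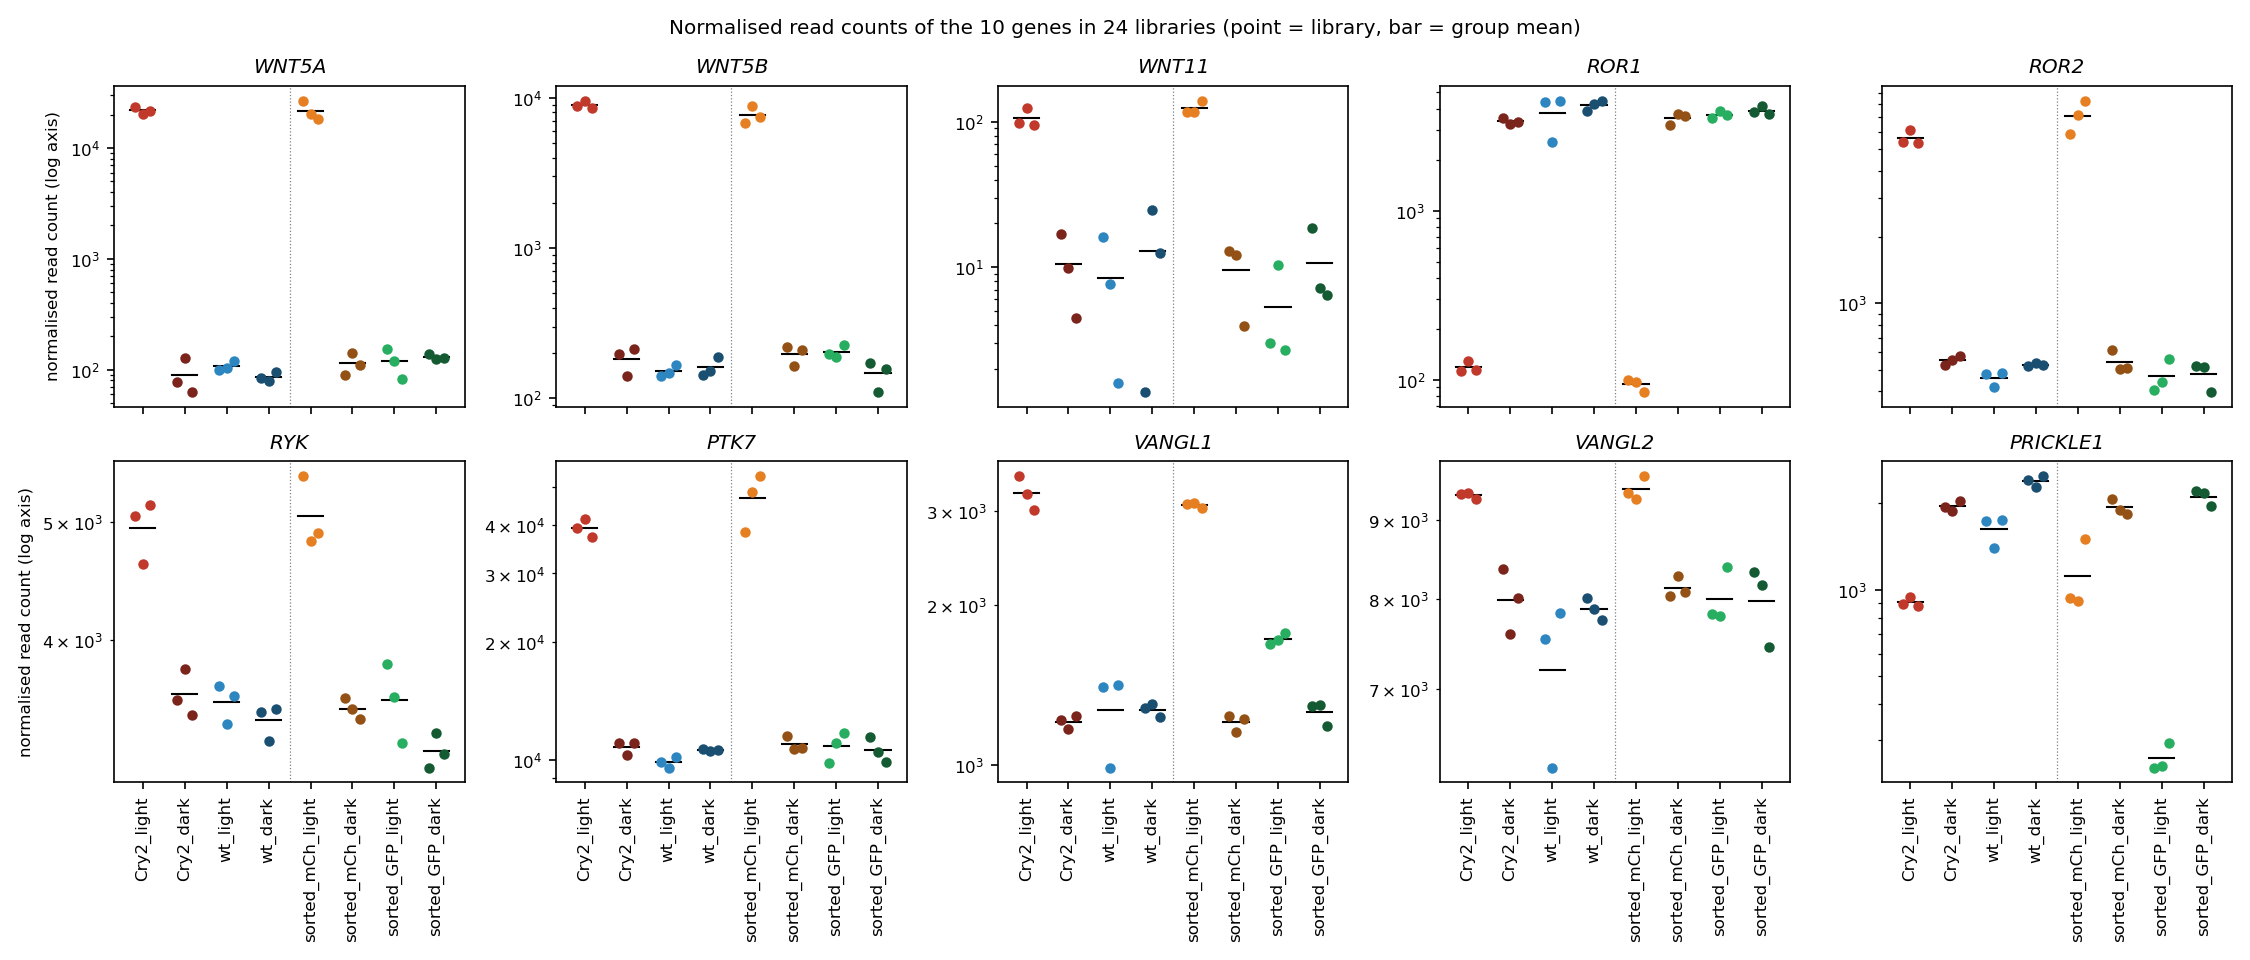
Normalised read counts (log axes) of the 10 genes in the 24 libraries of the 8 groups; points are libraries and bars are group means. The 6 illuminated engineered libraries lie apart from the others for WNT5A, WNT5B, WNT11, ROR1 and ROR2, while PRICKLE1 is lowest in the 3 GFP light libraries.

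Among the ligands, WNT5A, the best studied activator of the ROR receptors, showed the largest change of the 10 genes. The gene (ENSG00000114251) lies on chromosome 3, 55465715 to 55490539, minus strand. Its counts were 23594, 20296 and 21561 in Cry2 light, against 77.0, 128.7 and 62.5 in Cry2 dark. In mCherry light they were 26779, 20148 and 18263, against 89.9, 142.3 and 110 in mCherry dark. No illuminated engineered library came near any dark one. The change was 7.98 ± 0.20 in Cry2 cells, a 244-fold difference of means (adjusted p = 4.17e-14), and 7.57 ± 0.22 in mCherry cells (191-fold, adjusted p = 5.27e-13). Wild-type cells kept WNT5A low: the counts were 100, 103 and 121 in wt light against 83.9, 78.4 and 95.6 in wt dark, a difference of 0.32 ± 0.20 (adjusted p = 0.494). In GFP light they were 154.9, 118.7 and 82.2, against 138.9, 123.9 and 127.4 in GFP dark (-0.18 ± 0.22, 95% interval -0.64 to 0.29, adjusted p = 0.767). An antisense gene at the same locus, WNT5A-AS1, shares no exon bases with WNT5A; it averaged 68.3 in Cry2 light and 77.7 in mCherry light and was at or near 0 in the other 6 groups.

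WNT5B, a close relative of WNT5A (ENSG00000111186; chromosome 12, 1529891 to 1647243, plus strand), rose 48.9-fold in Cry2 cells. Its counts were 8800, 9601 and 8571 in Cry2 light, against 198.5, 140 and 212.8 in Cry2 dark (5.63 ± 0.15, adjusted p = 1.01e-13). Those of mCherry light were 6789, 8892 and 7484, against 218.3, 163.7 and 208.8 in mCherry dark (5.29 ± 0.17, adjusted p = 2.03e-12). Every illuminated engineered library again lay far above every dark one, though the gap was narrower than for WNT5A. GFP light averaged 205 ± 20.8 and GFP dark 146 ± 32.8 (SD, n = 3 each), with no overlap, yet the difference of 0.50 ± 0.17 missed the threshold (adjusted p = 0.134). FBXL14, on the opposite strand within the WNT5B locus with no shared exon bases, averaged 990 in Cry2 light against 348 in Cry2 dark; the sources do not say whether reads were counted by strand.

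WNT11, a ligand known for convergent extension in frog and fish embryos (ENSG00000085741; chromosome 11, 76186325 to 76210736, minus strand), was the scarcest of the 3 ligands in every group. Its counts were 98.6, 124.8 and 94.9 in Cry2 light, against 17.0, 9.90 and 4.46 in Cry2 dark. These rest on 370 and 23 reads in all. The change was 3.38 ± 0.79 (95% interval 1.68 to 5.07, adjusted p = 0.00182). In mCherry light the counts were 117.5, 116.4 and 140, against 12.8, 12.1 and 3.96 in mCherry dark (3.70 ± 0.54, adjusted p = 2.96e-05). Illuminated engineered libraries lay above all others, while the low groups overlapped one another. At these counts the pseudocount matters: with 10 in place of 1 the Cry2 change was 2.54. The change in Cry2 cells minus that in wt cells, 3.75 ± 1.12, ran from 3.01 without wt light 3 to 4.74 without wt dark 1 and kept its call. An antisense gene, AP000785.1, shares 204 exon bases with WNT11 and had no values in these data.

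Per kb of exon, the 3 ligands together reached 5082 ± 172 in Cry2 light and 59.1 ± 4.81 in Cry2 dark (SD, n = 3 each). WNT5A made up 58.0% of that sum in Cry2 light, against 20.9% in Cry2 dark. It made up 61.1% in mCherry light, against 23.9% in mCherry dark. WNT5B was the leading ligand per kb in all 6 other groups, with 60.4% to 72.3% of the sum, and WNT5A led in both illuminated engineered groups.

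The receptor pair ROR1 and ROR2, tyrosine kinase-like receptors for WNT5A, moved in opposite directions. ROR1 (ENSG00000185483; chromosome 1, 63774022 to 64181498, plus strand) had counts of 113, 130 and 114 in Cry2 light, against 3551, 3266 and 3353 in Cry2 dark. It had 100, 97.0 and 84.3 in mCherry light, against 3214, 3732 and 3646 in mCherry dark. All 6 illuminated engineered libraries lay below 131, and the 18 others lay at 2551 or above. ROR1 was 28.5-fold lower in Cry2 light than in Cry2 dark (-4.83 ± 0.16, adjusted p = 8.81e-13) and 37.7-fold lower in mCherry light than in mCherry dark (-5.22 ± 0.09, adjusted p = 4.8e-15). In wt light it was 4381, 2551 and 4478, against 3895, 4292 and 4435 in wt dark (-0.19 ± 0.16, adjusted p = 0.616). The value of 2551 came from wt light 2, the library that stood apart.

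ROR2 (ENSG00000169071; chromosome 9, 91563091 to 91950162, minus strand), which in mice carries WNT5A signals in limb and axis growth, had counts of 5401, 6099 and 5341 in Cry2 light. In Cry2 dark it had 527, 554 and 580. The difference was 10.1-fold (3.34 ± 0.09, adjusted p = 5.09e-14). Counts of 5867, 7111 and 8298 in mCherry light stood against 615, 507 and 509 in mCherry dark, a 13.0-fold difference of means (3.69 ± 0.16, adjusted p = 3.15e-11). No rise was seen in wild-type cells. Counts were 480.1, 418 and 483.5 in wt light, all below the 521, 536.5 and 525 of wt dark, but the difference missed the threshold (-0.20 ± 0.09, adjusted p = 0.344). GFP light averaged 468 ± 83.0 and GFP dark 477 ± 70.2 (SD, n = 3 each; -0.03 ± 0.16, adjusted p = 0.962).

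As a share of the summed level per kb of both receptors, ROR1 was 1.80% ± 0.02 in Cry2 light, against 84.1% ± 1.09 in Cry2 dark (SD, n = 3 each). It was 1.17% ± 0.29 in mCherry light, against 84.8% ± 2.52 in mCherry dark. In the wild-type groups its mean share was 87.2% in GFP light and 87.7% in GFP dark, with wt light and wt dark at 87.3% each. ROR2 made up nearly all of the pair in illuminated engineered cells of both cultures, and ROR1 most of it everywhere else.

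**Figure D2:**
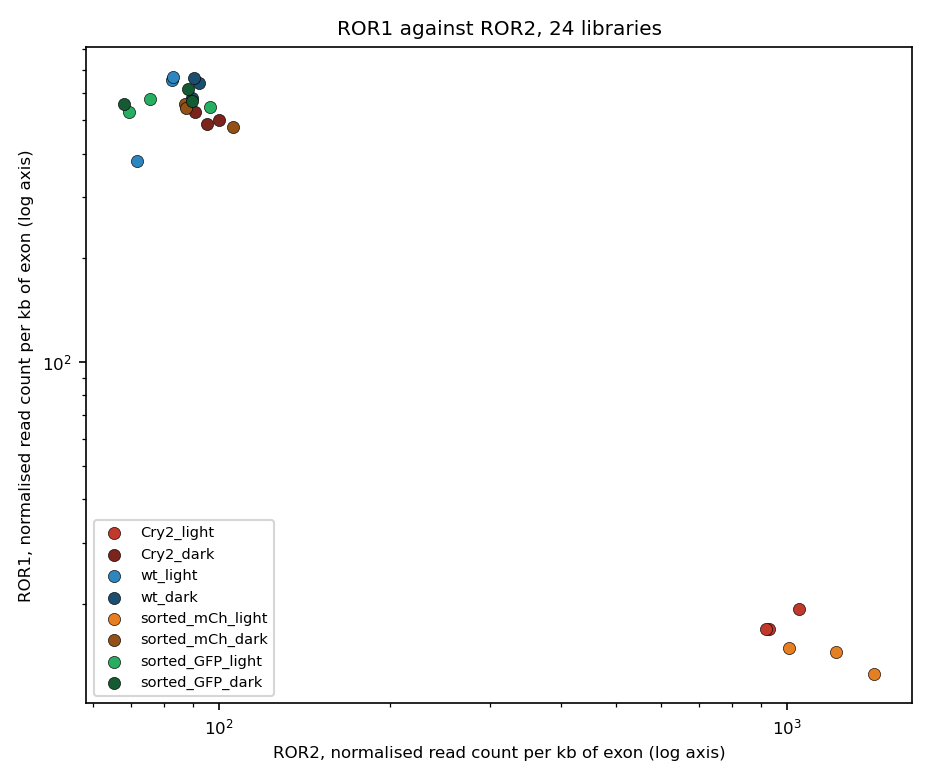
ROR1 against ROR2, both as normalised read count per kb of exon on log axes, 1 point per library. The 6 illuminated engineered libraries, where ROR1 averaged 17.7 (Cry2 light) and 14.0 (mCherry light) per kb, lie at lower right; the other 18 lie at upper left.

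PTK7 (ENSG00000112655; chromosome 6, 43076268 to 43161719, plus strand), a catalytically inactive receptor kinase that mouse embryos need for planar polarity, had the highest counts of the 10 genes in all 8 groups. Its counts were 39125, 41434 and 37249 in Cry2 light, against 11051, 10314 and 11058 in Cry2 dark, a 3.63-fold rise (1.86 ± 0.05, adjusted p = 2.51e-13). In mCherry light they were 38369, 48422 and 53272, against 11541, 10688 and 10759 in mCherry dark (2.07 ± 0.11, adjusted p = 4.13e-10). No illuminated library overlapped a dark one. RYK (ENSG00000163785; chromosome 3, 134065303 to 134250744, minus strand), an atypical kinase receptor that binds Wnts, changed least among the receptors. It averaged 4942 ± 291 in Cry2 light and 3612 ± 158 in Cry2 dark (0.45 ± 0.06, adjusted p = 1.38e-05), and 5054 ± 345 in mCherry light and 3516 ± 70.0 in mCherry dark (0.52 ± 0.08, adjusted p = 3.49e-05; SD, n = 3 each). Its illuminated and dark engineered libraries did not overlap.

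The 4 receptors together stood at 5948 ± 266 per kb in Cry2 light and 2247 ± 47.5 in Cry2 dark (SD, n = 3 each). PTK7 was the largest of the 4 per kb in both, at 4352 in Cry2 light and 1198 in Cry2 dark. ROR2 came second in Cry2 light at 965, and ROR1 came second in Cry2 dark at 505.

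Of the core polarity genes, VANGL1 and VANGL2 encode related membrane proteins at the centre of the polarity complex. VANGL1 (ENSG00000173218; chromosome 1, 115641953 to 115698224, plus strand) had counts of 3497, 3227 and 3015 in Cry2 light, against 1217, 1168 and 1234 in Cry2 dark (2.69-fold, 1.43 ± 0.11, adjusted p = 2.74e-08). In mCherry light it had 3093, 3111 and 3046, against 1238, 1152 and 1221 in mCherry dark (2.56-fold, 1.36 ± 0.07, adjusted p = 5.68e-10). The groups were well separated in both cultures. VANGL2 (ENSG00000162738; chromosome 1, 160400586 to 160428678, plus strand) was far more abundant and moved little. It averaged 9344 ± 45.1 in Cry2 light and 7994 ± 385 in Cry2 dark (0.23 ± 0.07, adjusted p = 0.0154). The call was lost without Cry2 dark 2 (0.19, adjusted p = 0.0684) and without the low-GC and low-integrity dark libraries together (0.23, adjusted p = 0.0515). In mCherry light it averaged 9426 ± 172 and in mCherry dark 8135 ± 126 (0.21 ± 0.07, adjusted p = 0.0151; SD, n = 3 each). VANGL1 made up 17.0% of the summed VANGL level per kb in Cry2 light, against 8.17% in Cry2 dark.

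**Figure D3:**
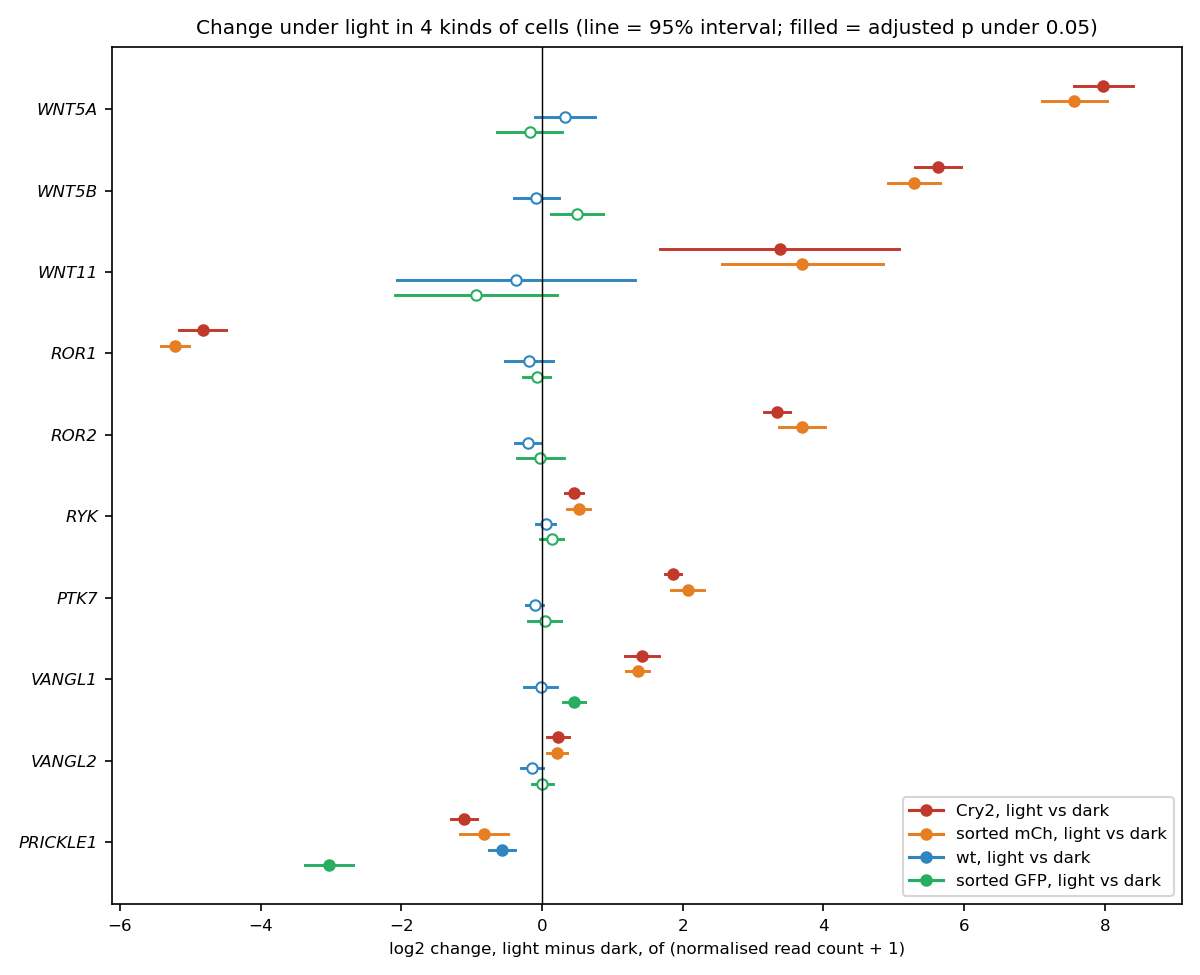
Log2 change of (normalised read count + 1), light minus dark, of the 10 genes in 4 kinds of cells; lines are 95% intervals and filled points passed adjusted p under 0.05. In engineered cells 8 genes lie right of 0 and ROR1 and PRICKLE1 left of it, and PRICKLE1 lies farthest left in GFP cells, at -3.03.

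PRICKLE1, a cytoplasmic LIM-domain protein that binds Vangl (ENSG00000139174; chromosome 12, 42456757 to 42590355, minus strand), was lower under light in all 4 kinds of cells, and lowest in the wild-type neighbours. Its counts were 240.6, 243 and 293.7 in GFP light, against 2212, 2174 and 1955 in GFP dark. The groups were far apart. The 8.16-fold difference (-3.03 ± 0.16, 95% interval -3.37 to -2.69, adjusted p = 7.46e-08) ranked 32 by absolute change among 19436 genes tested, and 4.6% of those genes passed the threshold in GFP cells (2.39% higher, 2.21% lower). Without any 1 library it stayed between -3.12 and -2.98.

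Light also lowered PRICKLE1 in engineered cells. It had counts of 895, 942 and 876 in Cry2 light, against 1943, 1889 and 2037 in Cry2 dark (2.16-fold lower, -1.11 ± 0.09, adjusted p = 2.2e-08). It had 938, 915 and 1510 in mCherry light, against 2077, 1891 and 1841 in mCherry dark (-0.83 ± 0.16, adjusted p = 0.000398). The library mCherry light c, at 1510, lay well above the other mCherry light libraries and still below every mCherry dark library. In wt light the counts were 1742, 1394 and 1750, against 2418, 2282 and 2496 in wt dark, again without overlap (-0.57 ± 0.09, adjusted p = 0.0278). PRICKLE1 was the 1 of the 10 genes past the threshold in wt cells, where 0.072% of all genes passed and 0.0411% passed as lower. That call did not hold without wt dark 1 (adjusted p = 0.182), wt dark 2 (0.099) or wt dark 3 (0.108), in the fit of all 24 libraries (0.109), or without the low-GC and low-integrity libraries (0.285), although the change stayed between -0.60 and -0.54 in these.

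The effect of light on PRICKLE1 was larger in GFP cells than in wt monocultures, with a difference of effects of -2.46 ± 0.19 (adjusted p = 9.06e-09; 2.3% of all genes passed, 0.886% as lower). Of the 10 genes, it alone passed in that test. Directly, GFP light was 6.29-fold lower than wt light (-2.65 ± 0.13, adjusted p = 1.16e-12), where 13.9% of all genes passed, 8.02% as higher and 5.86% as lower. The mean of mCherry light, 1121 ± 337, was 4.33-fold above that of GFP light, 259 ± 30.0 (SD, n = 3 each; 2.08 ± 0.16, adjusted p = 3.12e-08), so neighbours that shared a dish differed more in PRICKLE1 than they did in the dark, where mCherry dark averaged 1936 ± 124 and GFP dark 2113 ± 139 (-0.13 ± 0.16). The difference of the light effects in mCherry and GFP cells was 2.20 ± 0.22 (adjusted p = 1.4e-06). By mean the 8 groups ran from wt dark (2398) through GFP dark (2113), Cry2 dark (1956), mCherry dark (1936), wt light (1629), mCherry light (1121) and Cry2 light (904) to GFP light (259). GFP dark, Cry2 dark and mCherry dark overlapped one another, as did wt light and mCherry light, and mCherry light and Cry2 light; wt dark lay above all other libraries and GFP light below them.

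PPHLN1 shares 438 exon bases with PRICKLE1 on the opposite strand. It averaged 2604 in GFP light and 2614 in GFP dark (0.00 in size on the log2 scale, adjusted p = 0.999). An antisense gene, AC079601.1, shares 1858 exon bases with PRICKLE1 and was at or near 0 in every group. Whether reads are shared between these genes was not tested. VANGL1 was the second of the 10 genes to pass in GFP cells. Its counts were 1686, 1716 and 1772 in GFP light, against 1292, 1297 and 1183 in GFP dark (0.46 ± 0.07, 1.37-fold, adjusted p = 0.00186), with no overlap. The other 8 genes did not pass in GFP cells: their changes ran from -0.94 (WNT11) to 0.50 (WNT5B), and the 95% interval of PTK7 was -0.20 to 0.27. GFP light exceeded wt light in VANGL1 by 0.46 ± 0.10 (adjusted p = 0.00239), and by 0.29 (adjusted p = 0.0156) without wt light 2. VANGL2 did not pass between these groups (0.16 ± 0.07, adjusted p = 0.14), but did without wt light 3 (0.22, adjusted p = 0.0492), and WNT5B (0.43 ± 0.17, adjusted p = 0.0904) passed by DESeq2 (adjusted p = 0.0366). The difference of the light effects on VANGL1 in GFP and wt cells was 0.48 ± 0.14 (adjusted p = 0.0695). It passed without wt light 1 (adjusted p = 0.0303) or wt light 3 (adjusted p = 0.0281), and by DESeq2 (adjusted p = 0.0393).

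**Figure D4:**
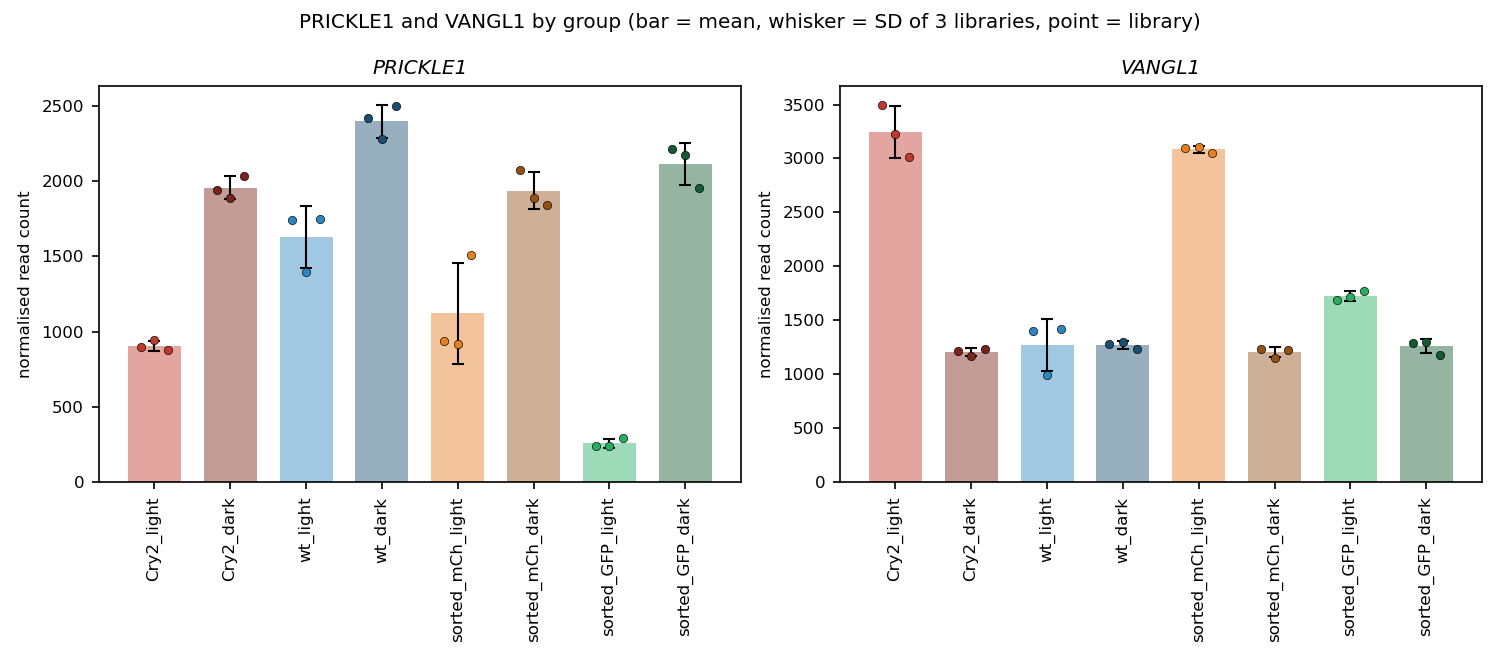
Normalised read counts of PRICKLE1 and VANGL1 in the 8 groups (bars are means, whiskers SD of 3 libraries, points libraries). PRICKLE1 averages 259 in GFP light and 2113 in GFP dark; VANGL1 averages 1725 in GFP light, above GFP dark (1257) and below Cry2 light (3246) and mCherry light (3083).

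Other measured values moved in GFP light as well. The sum of the 6 streak and mesoderm markers was 653 to 711 in GFP light, against 206 to 249 in GFP dark, with TBXT, EOMES and MIXL1 past the threshold. The sum of 4 definitive endoderm markers was 156 to 217 in GFP light, against 60.2 to 86.6 in GFP dark, with SOX17 at 0 in both; of the 2 that could be tested, CER1 rose (1.55 ± 0.21) and FOXA2 did not pass (-0.79 ± 0.57). Of 5 canonical targets, SP5 rose by 5.08 ± 0.57, NOTUM by 1.86 ± 0.32 and LEF1 by 0.79 ± 0.20. NKD1 (-0.14 ± 0.09) and AXIN2 (-0.06 ± 0.18) did not pass. The change of LEF1 under light in wt monocultures was 0.75 ± 0.25 (adjusted p = 0.258). The 6 pluripotency markers summed to 230216 to 254879 in GFP light and 223020 to 231234 in GFP dark. Of these, NANOG was higher (0.63 ± 0.09, adjusted p = 0.000757) and TDGF1 lower (-0.35 ± 0.09, adjusted p = 0.0485) in GFP light, and the others did not pass. The puromycin gene of the engineered cells averaged 1.63 in GFP light and 2.50 in GFP dark, against 3189 in mCherry light. In the mCherry gate, eGFP averaged 23.3 in mCherry light and 4.85 in mCherry dark, against 13259 in GFP light. The Cry2 fusion, which contains LRP6 sequence, averaged 396 in GFP light and 370 in GFP dark. WNT5A, at 21730 ± 4473 in mCherry light, did not differ detectably between GFP light and GFP dark. The part of the marker changes, or of engineered cells carried over in the sort, in the changes of PRICKLE1 and VANGL1 was not tested.

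Light effects were compared between lines in each culture. The Cry2 effect minus the wt effect passed for all 10 genes, 8 positive and 2 negative, where 47.8% of all genes passed (22.8% positive, 25% negative). It was 7.65 ± 0.28 for WNT5A, -4.64 ± 0.22 for ROR1, 3.54 ± 0.12 for ROR2 and -0.55 ± 0.12 for PRICKLE1. In co-culture, the mCherry effect minus the GFP effect passed for 9 genes, where 40.5% of all genes passed (19.5% positive, 21% negative). VANGL2 was the exception, at 0.21 ± 0.10 (adjusted p = 0.102). For PRICKLE1 the sign was negative in monoculture and positive in co-culture.

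Among illuminated cells, Cry2 light exceeded wt light in 8 of the 10 genes and lay below it in ROR1 (32.02-fold) and PRICKLE1 (1.80-fold); 60.9% of all genes passed there, 29.6% higher and 31.3% lower. In co-culture, mCherry light exceeded GFP light in 9 genes and lay below it in ROR1 alone (39.4-fold), where 54.3% of all genes passed, 26.8% higher and 27.6% lower. WNT5A was 202-fold higher in Cry2 light than in wt light and 183-fold higher in mCherry light than in GFP light.

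In the dark the lines differed little in the 10 genes. The percentages of all genes given here are for the adjusted threshold, and no share of all genes was counted at an unadjusted p. None of the 10 genes passed between Cry2 dark and wt dark by limma or edgeR, where 3.6% of all genes did; 1 had an unadjusted p under 0.05, and DESeq2 called PRICKLE1 (-0.29, adjusted p = 0.0282). PRICKLE1 averaged 1956 ± 75.2 in Cry2 dark and 2398 ± 109 in wt dark (SD, n = 3 each), without overlap. None passed between mCherry dark and GFP dark by limma, edgeR or DESeq2 (1 at an unadjusted p under 0.05; 0.797% of all genes passed). Dark cells were also set against each other across cultures. No gene of the 10 passed between mCherry dark and Cry2 dark (0 at an unadjusted p under 0.05; 0.0148% of all genes) or between GFP dark and wt dark (1; 0.0295%), by limma, edgeR or DESeq2.

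No difference in the engineered response to light was detected between cultures for the 10 genes, though the intervals below leave room for one. The light effect in mCherry cells minus that in Cry2 cells passed for none of the 10 genes by limma, edgeR or DESeq2, and none had an unadjusted p under 0.05; 0.064% of all genes passed. The difference was -0.41 for WNT5A (95% interval -1.05 to 0.23), -0.40 for ROR1 (-0.79 to 0.00) and 0.29 for PRICKLE1 (-0.10 to 0.67). Between mCherry light and Cry2 light none passed by the same tools, where 0.723% of all genes passed the adjusted threshold. At an unadjusted p under 0.05 there were 3 of the 10, but no share of all genes was counted at that threshold. Without mCherry light a, ROR2 (0.46, adjusted p = 0.0214) and PTK7 (0.37, adjusted p = 0.00282) were higher in mCherry light.

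Levels per kb also give the order of the genes within a group. In Cry2 light the order was PTK7 (4352), WNT5A (2949), WNT5B (2088), VANGL2 (1750), ROR2 (965), RYK (614), VANGL1 (358), PRICKLE1 (110), WNT11 (44.2) and ROR1 (17.7). In Cry2 dark it was VANGL2 (1497), PTK7 (1198), ROR1 (505), RYK (449), PRICKLE1 (237), VANGL1 (133), ROR2 (95.2), WNT5B (42.7), WNT5A (12.1) and WNT11 (4.35). ROR1 thus stood behind VANGL2 and PTK7 in the dark and last under light. WNT5A was above WNT11 alone in the dark and behind PTK7 alone under light. The order of Cry2 light held in mCherry light, where the libraries of WNT5B and VANGL2 overlapped. The order of Cry2 dark held in mCherry dark, wt dark, GFP dark and wt light, with an overlap of neighbours for ROR1 and RYK in wt light. GFP light kept it for the other 9 genes, but PRICKLE1, at 31.4 per kb, stood below ROR2 (80.5) and WNT5B (47.5).

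Other genes of the same pathways were read from lists written for their roles. Of 14 other core polarity genes, 5 were higher and 4 lower in Cry2 light than in Cry2 dark, with a list median of 0.14; over all genes 58.4% passed there (28.1% higher, 30.4% lower). CELSR2, an atypical cadherin of the core complex, fell most (-3.48 ± 0.17), and the polarity receptors FZD6 (-0.72) and FZD3 (-0.22) and CELSR1 (-0.36) also fell. PRICKLE4 (1.35) and PRICKLE2 (0.66), relatives of PRICKLE1, rose, as did DVL2 (0.85), a Dishevelled protein that relays Wnt signals, and INVS (0.85). In mCherry cells 7 of the 14 were higher and 4 lower, beside 55.9% of all genes called, with CELSR2 at -3.40 ± 0.10. None passed in GFP cells by limma, edgeR or DESeq2, beside 4.6% of all genes called by limma. At an unadjusted p under 0.05 there were 2, with no share of all genes counted at that threshold.

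The cytoskeletal arm of 11 genes had 8 higher and none lower in Cry2 light than in Cry2 dark, where 28.1% of all genes were higher and 30.4% lower. DAAM2, a formin that binds Dishevelled, rose by 1.90 ± 0.15 and ROCK2, a kinase that acts on the cytoskeleton, by 1.31 ± 0.15. JUN (0.70) and CDC42 (0.47) followed. In mCherry cells 5 rose and none fell, beside 27.2% and 28.7% of all genes, led by DAAM2 (2.00 ± 0.12). In GFP light DAAM2 (0.84 ± 0.12, adjusted p = 0.000542) and JUN (0.91 ± 0.19, adjusted p = 0.0113) were higher than in GFP dark.

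Of 7 genes of the Fat-Dachsous system and of ciliary polarity effectors, 1 was higher and 2 were lower in Cry2 light, a smaller share than the 58.4% of all genes called. DCHS1, a giant cadherin of that system, rose by 2.51 ± 0.09, and WDPCP (-1.07) and FJX1 (-0.57) fell. In mCherry cells, where 55.9% of all genes passed, DCHS1 (2.70) and DCHS2 (0.69) rose and WDPCP (-0.97) fell. FAT4 (1.05 ± 0.18, adjusted p = 0.00266) and DCHS1 (0.46 ± 0.12, adjusted p = 0.0416) were higher in GFP light than in GFP dark.

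In the calcium arm, 10 of 12 genes could be tested in Cry2 cells, with 5 higher and 3 lower under light, beside 28.1% and 30.4% of all genes. NFATC1, a calcium-responsive transcription factor, rose by 1.67 and CAMK2D, a calcium/calmodulin-dependent kinase, by 1.66, and NFATC4 (0.92) and NFATC3 (0.78) rose less. PRKCB, a calcium-activated protein kinase C, fell by 3.97, and NFATC2 (-1.27) and CAMK2G (-1.11) also fell. In mCherry cells 4 of 12 were higher and 3 lower, beside 55.9% of all genes called. None passed in GFP cells by limma, edgeR or DESeq2, beside 4.6% of all genes called by limma. At an unadjusted p under 0.05 there were 2, with no share of all genes counted at that threshold.

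Among 11 testable modulators and other ligands or receptors, 3 were higher and 4 lower in Cry2 light than in Cry2 dark, where 58.4% of all genes passed. WLS, the carrier that brings Wnt ligands to the cell surface, rose by 5.60 ± 0.17, alongside the ligands it carries. FZD5, a Frizzled receptor, fell by 6.73 ± 0.28, and the glypicans GPC4 (-1.87) and GPC6 (-0.60) fell. The counts were also 3 and 4 in mCherry cells, where 55.9% of all genes passed, led by WLS (5.59) and FZD5 (-6.32). In GFP light FZD5 (0.65) and GPC6 (0.45) were higher and FZD2 (-0.69) lower than in GFP dark. None of the 5 lists had a gene past the threshold in wt cells by limma or edgeR. Over all genes 0.072% passed there by limma. DESeq2, which called more genes than limma there (counts given below), called 1 core polarity gene and 1 modulator. At an unadjusted p under 0.05 were 3 core, 1 cytoskeletal, 0 Fat-Dachsous or ciliary, 1 calcium and 2 modulator genes. No share of all genes was counted at that threshold, so these counts cannot be set against one.

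**Figure D5:**
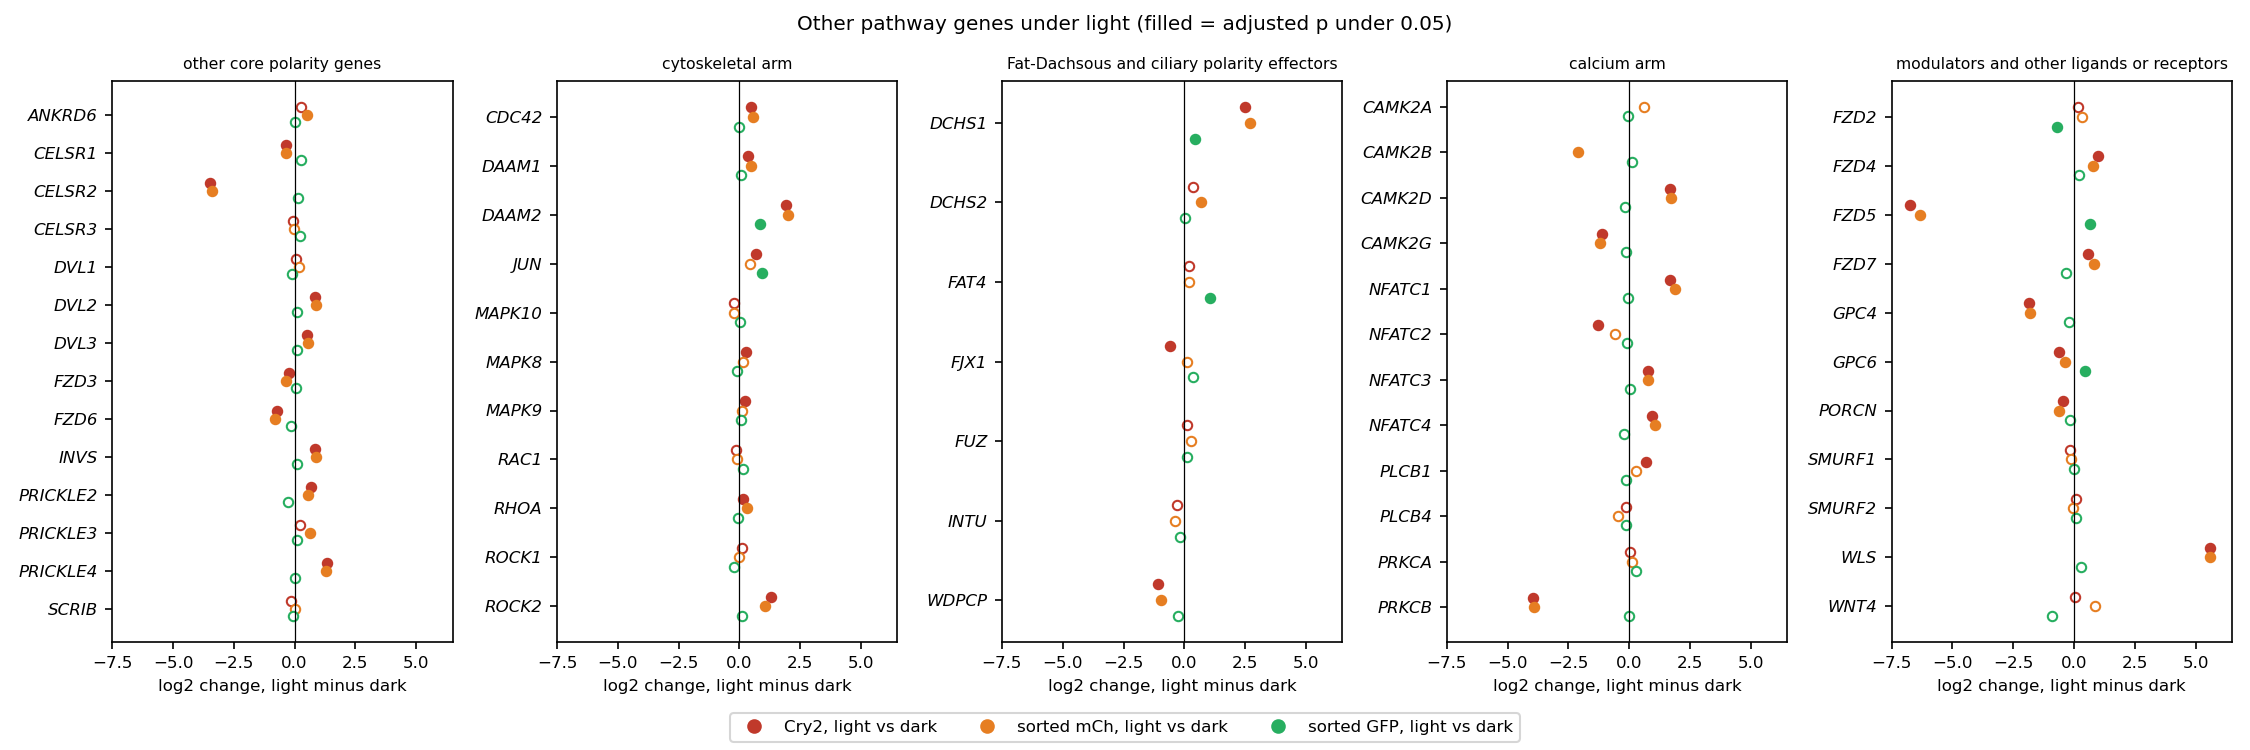
Log2 change, light minus dark, of the genes of 5 other lists of the pathway in Cry2, mCherry and GFP cells; filled points passed adjusted p under 0.05. CELSR2 (-3.48 in Cry2 cells), PRKCB and FZD5 lie far left and WLS far right in both kinds of engineered cells, and most GFP points lie near 0.

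The genes whose levels ran most like each of the 10 were found by Pearson correlation of log2(count + 1) over the 24 libraries, which share the 8 groups and the light response, so the values describe likeness only. WNT5A ran closest to LIPG (r = 0.998), HAPLN1 (0.997) and ENPP2 (0.996). For WNT5B these were CDH11, WLS and STRA6 (0.996 to 0.995), and for ROR2 they were PLXNA2, ABHD4 and ELFN1 (0.996). ROR1 ran closest to CR2 (0.998), ERBB3 and ESRP1 (0.997 each). PTK7 ran closest to LRP10, MMP2 and MMP14 (0.997), VANGL1 to SLIT2 (0.991), MCC (0.989) and TBXT (0.988), and RYK to FERMT2, TNS4 and PRKAR1A (0.970 to 0.966). Likeness was lower for VANGL2, with SSH1 (0.966), ZNF618 (0.963) and PRRC2B (0.956), and for WNT11, with KCNK13 (0.920), EFNB3 and MRC1 (0.914 each).

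PRICKLE1 had the weakest best match, ST7-AS1 (0.906), then ANXA4 (0.862) and CTC-455F18.1 (0.856). Within the 10 genes, ROR2 and PTK7 ran most alike (r = 0.997) and ROR1 ran opposite to WNT5A, WNT5B and ROR2 (r = -0.991 each). Correlations of PRICKLE1 with the other 9 lay between -0.45 (VANGL1) and 0.23 (ROR1), so it followed none of them closely.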

How the data were processed

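RNA was sequenced from 24 libraries in 8 groups of 3. The values used are the authors' deposited signal per gene, read counts divided by 1 factor per library; multiplied by that factor, 100.0% were whole numbers within 0.01. FastQC, cutadapt, Bowtie2, STAR, HTSeq and DESeq were used per the submitters' processing notes; their versions were not stated in the sources used here. The notes name GRCh38 and a deposited sample table hg19, and this was not resolved, so gene coordinates and exon lengths were taken from GENCODE 29 (GRCh38) by Ensembl ID. The deposited sample table gives the total read count, the RNA integrity score and the GC and alignment percent of the monoculture libraries, as the authors measured them. A stranded kit was used per the labels' protocols; the strand setting of the counting is unknown.

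Genes with at least 10 in at least 3 libraries were kept. Values were tested as log2(value + 1), which understates the change of low genes, with limma 3.58.1 (R 4.3.3), in fits of 12 monoculture libraries (19444 genes), 12 co-culture libraries (19436) or all 24 (20322) across cultures. An adjusted p (Benjamini-Hochberg) under 0.05 was the threshold. Folds are ratios of group means. Alternatives were edgeR 4.0.16 and DESeq2 1.42.0 on the recovered reads, TMM scaling, another pseudocount, no filter, 1 fit of all libraries, a replicate block and leaving out each library. The fit was tested on simulated data.

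Genotype tags of the monocultures contradict their titles; the titles were used, and the sample table and the reads of the construct match them. Co-culture columns could be matched to a group only. TBXT was matched by Ensembl ID. In monoculture, 0 of 18 correlations between same-numbered libraries exceeded 0.1, so the numbers were not treated as pairs. The 10 genes and all lists were chosen with earlier results of these data known. All 10 members are named in every comparison that calls them, and the 3 genes most correlated with each member (mean of at least 50) are named. Of each pathway list, at most 4 called genes per direction are named, so a gene left unnamed may also have been called.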

Additional observations from a re-analysis of the deposited data

Results flagged for a closer look

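The effect of light differed between the engineered and the wild-type cells of a monoculture for all 10 genes, each by limma's test of the difference itself, which 47.8% of all genes passed. On the log2 scale, the Cry2 effect minus the wt effect was 7.65 for WNT5A, 5.71 for WNT5B, 3.75 for WNT11, -4.64 for ROR1 and 3.54 for ROR2. It was 0.40 for RYK, 1.97 for PTK7, 1.45 for VANGL1, 0.36 for VANGL2 and -0.55 for PRICKLE1.

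In co-culture 9 of the 10 genes passed the same test, as did 40.5% of all genes. The mCherry effect minus the GFP effect was 7.74 for WNT5A, 4.79 for WNT5B, 4.64 for WNT11, -5.14 for ROR1, 3.72 for ROR2, 0.39 for RYK, 2.04 for PTK7, 0.90 for VANGL1 and 2.20 for PRICKLE1.

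Between wild-type cells of both cultures, the GFP effect minus the wt effect was -2.46 for PRICKLE1, again by the test of the difference, which 2.3% of all genes passed.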

How the results depend on the processing

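Of 160 results for single genes, 152 kept their call and, where called, their direction under every alternative; direction was compared only where a call was made, and 0 of 2369 pairs of result and alternative reversed. In wt light against wt dark, the count of the 10 genes called was 1 and became 0 in the fit of all 24 libraries and without the low-GC and low-integrity dark libraries, and ran from 0 to 1 when 1 library was left out. Over all genes that comparison called 14 by limma, 47 by edgeR and 290 by DESeq2. DESeq2 called 1 gene between Cry2 dark and wt dark (PRICKLE1) where limma called 0, and 2 in the GFP effect minus the wt effect (PRICKLE1 and VANGL1) where limma called 1; that count ran from 1 to 2 with 1 library left out. Between mCherry light and Cry2 light it ran from 0 to 2. The cause of these differences was not tested.

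With the replicate block, the 5 monoculture comparisons called 10, 1, 0, 10 and 10 of the 10 genes, and no call changed. Without the block, 58.4%, 0.072%, 3.6%, 60.9% and 47.8% of all genes passed in the same comparisons. Leaving out the low-GC and low-integrity libraries, or the shallower c libraries of both illuminated sorted groups, was chosen after seeing the data. TMM scaling moved the median of all genes by at most 0.0204. WNT11 rests on few reads in most groups, and its changes depend most on the pseudocount (2.81 in mCherry cells with 10). In monoculture depth coincides with light. The RNA integrity and GC content of the co-culture libraries could not be tied to single libraries, so they were not used.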

Other observations

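FBXL14, the gene opposite WNT5B, was higher in GFP light than in GFP dark by 0.57 ± 0.11 (adjusted p = 0.00643), with means of 551 in GFP light and 371 in GFP dark, while WNT5B itself missed the threshold (0.50 ± 0.17, adjusted p = 0.134). In GFP cells 4.6% of all genes passed.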
